A study of Mus musculus with 30 samples.

Results

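The SR proteins and the heterogeneous nuclear ribonucleoproteins (hnRNPs) are the main families of general splicing regulators. Their messages were followed in the dorsal hippocampus of mice that stayed in the home cage or were trained on object locations. The genes were taken by symbol, as every row of the expression table that begins with Srsf and a digit or with Hnrnp. This gave 31 genes of the 24883 rows, 11 SR genes (Srsf1, Srsf2, Srsf3, Srsf4, Srsf5, Srsf6, Srsf7, Srsf9, Srsf10, Srsf11 and Srsf12) and 20 hnRNP genes (Hnrnpa0, Hnrnpa1, Hnrnpa2b1, Hnrnpa3, Hnrnpab, Hnrnpc, Hnrnpd, Hnrnpdl, Hnrnpf, Hnrnph1, Hnrnph2, Hnrnph3, Hnrnpk, Hnrnpl, Hnrnpll, Hnrnpm, Hnrnpr, Hnrnpu, Hnrnpul1 and Hnrnpul2). Each had 1 row, and all 31 passed the filter for testing, a mean of at least 1 FPKM over the 30 libraries.

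The study asked how the neuronal chromatin regulator CREST and its tyrosine Y397, whose phosphorylation was supposed and not measured, act on the genes that follow learning. RNA-seq was done on 30 young adult male C57BL/6J mice, 1 library per mouse and 6 mice in each of 5 conditions. VEH-HC mice received the transfection reagent without DNA and were handled but never trained. VEH-T10 mice received the same reagent and 10 min of object location memory (OLM) training, which is called threshold training, and VEH-T3 mice received the reagent and 3 min, called subthreshold. Y397F-T10 mice carried a plasmid with HA-tagged CREST in which phenylalanine replaces this tyrosine and were trained for 10 min, and Y397D-T3 mice carried the point mutant with aspartate and were trained for 3 min. The plasmids used a shortened CaMK2 promoter, which drives expression in excitatory neurons, and the labels place the infusion 3 days before training. Trained mice were killed 1 h after the session and a hemisphere of dorsal hippocampus was taken. No condition received an empty plasmid, so that delivery of DNA and the CREST mutant cannot be told apart. Wild-type CREST was not given either, so added CREST and the change at Y397 cannot be told apart, a limit the paper states. Each mutant was given with 1 length of training only, and the same 6 VEH-HC mice were the reference of every comparison with the home cage. The paper's OLM task began with days of habituation to the chamber, while its home cage controls had handling only. Training and habituation therefore cannot be told apart in the comparisons with VEH-HC.

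SR proteins bind exonic sequences through RNA recognition motifs and recruit the spliceosome through a tail of arginine and serine repeats, the RS domain. Kinases of the SRPK and CLK families phosphorylate this tail and thereby set where the proteins sit in the nucleus and how they act. The hnRNPs coat nascent transcripts, often silence the exons that SR proteins favor, and accompany messages to the cytoplasm, in neurons as far as dendrites and axons. Many of these genes control their own level by splicing in an exon with a premature stop, which sends the message to nonsense-mediated decay.

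The measured values have limits that bear on every comparison with VEH-HC, and tissue markers also differed among trained conditions, as given further on. Summed levels of pyramidal cell markers were 1022 to 1123 FPKM in VEH-HC and 1065 to 1351 FPKM over the trained mice. In Y397D-T3 they were 1209 to 1301 FPKM, above every VEH-HC mouse. Camk2a made up most of this sum, with means of 781 FPKM in VEH-HC and 926 FPKM in Y397D-T3. Of the 7 markers 5 were higher there and 3 were called higher (Camk2a, Pou3f1 and Neurod6), beside 3.91% of all tested rows. Wfs1 had a median of 49.3 FPKM in Y397D-T3 and 51.9 FPKM in VEH-HC. The marker genes of choroid plexus summed to between 1069 and 6329 FPKM in VEH-HC and to between 43.1 and 14310 FPKM in trained mice, so that some dissections held much of this tissue and others nearly none. The thalamic gene Slc17a6 was at 3.60 to 5.06 FPKM in VEH-HC and had medians between 1.45 and 1.92 FPKM in the 4 trained conditions, with 1 VEH-T3 library as high as 6.15 FPKM. The nuclear RNA Malat1 was at 17.4 to 40.7 FPKM in VEH-HC, 42.9 to 54.8 FPKM in VEH-T3 and 40.8 to 73.2 FPKM in Y397D-T3, with log2 fold changes of 0.65 (adjusted p = 0.0181) and 0.90 (adjusted p = 0.00134). For Malat1 both conditions lay wholly above the home cage, while VEH-T10 (32.2 to 50.02 FPKM) and Y397F-T10 (27.0 to 48.1 FPKM) overlapped it. Malat1 was 1 of 6 nuclear RNAs followed. All 6 were higher than the home cage with Y397D-T3 and also with VEH-T10 (median log2 differences 0.49 and 0.31). For VEH-T3 mice 5 of the 6 were higher (0.36), and for Y397F-T10 mice 4 (0.13). The shift of this list was thus not limited to 3 min of training, although 0 of the 6 were called after 10 min. The globin Hbb-bs exceeded 1 FPKM in 6 libraries of Y397D-T3, 5 of VEH-T3, 2 each of VEH-T10 and Y397F-T10 and 0 of VEH-HC. Home cage libraries nevertheless held blood RNA. The blood markers summed to 530 to 1086 FPKM in VEH-HC and had medians of 750 to 1051 FPKM in the trained conditions. Of the 6 rows of these markers, 1 was called higher in VEH-T3 and 1 in Y397D-T3. The part of tissue composition, of nuclear RNA and of these other library differences in the results on splicing factors was not tested. In such tissue, fewer cells of a type and less RNA per cell cannot be told apart. Separate mice are the replicates here.

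In the home cage the 31 genes covered a wide span of levels. FPKM is per transcript length, so the genes can be set side by side. Hnrnpk, which binds C-rich RNA, was highest at 147 ± 4.92 FPKM (mean ± SD, n = 6) and Hnrnpa2b1, which carries messages toward dendrites, followed at 119 ± 3.89 FPKM. The ranges of these genes did not overlap. Srsf5 was the most abundant SR message at 110 ± 6.42 FPKM, and its mice overlapped those of Hnrnpa2b1 above and Hnrnpa0 (104 ± 4.16 FPKM) below. Hnrnpu, a scaffold of nuclear chromatin, was at 97.0 ± 2.33 FPKM. The scale ended with Hnrnpr at 11.7 ± 0.547 FPKM, Srsf4 at 7.98 ± 0.654 FPKM and Srsf12, a repressor related to Srsf10, at 5.98 ± 0.372 FPKM. Hnrnpk stood at the percentile 96.5 of all tested rows and Srsf12 at 34.5. Between neighbors in this order, 21 of the 30 steps down the order were between genes whose mice overlapped.

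**Figure D1:**
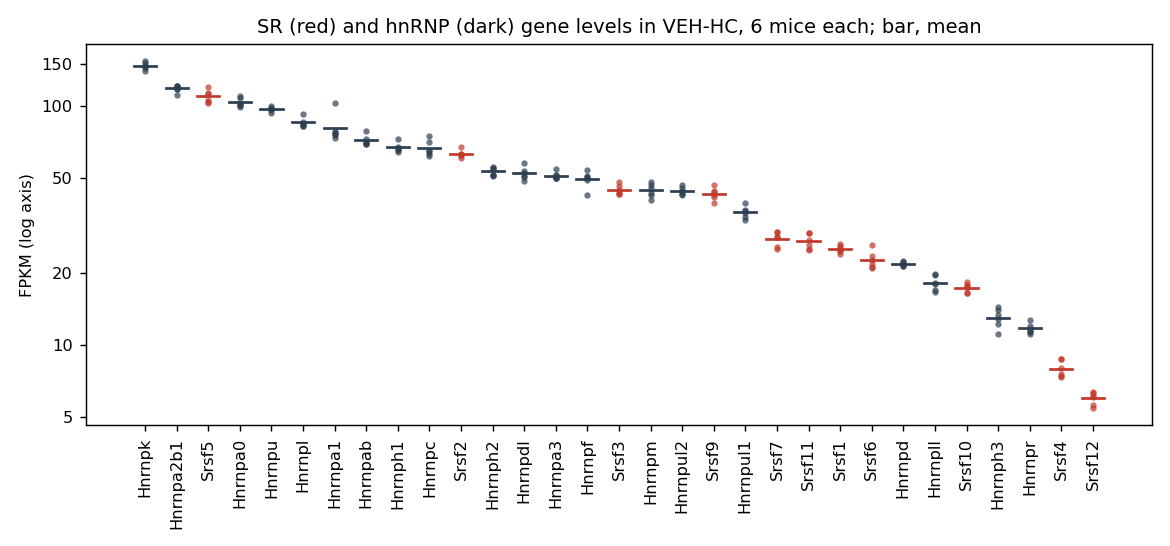
FPKM (log axis) of the 31 genes in the 6 VEH-HC mice, 1 point per mouse with a bar at the mean, SR genes in red and hnRNP genes in dark. Levels run from 147 FPKM for Hnrnpk to 5.98 FPKM for Srsf12, and most neighbors overlap.

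The families shared features of annotation that the choice by symbol did not use. In GENCODE, 9 of the 11 SR genes (81.8%) and 10 of the 20 hnRNP genes (50%) had a transcript classed as a target of nonsense-mediated decay, beside 27.2% of 12637 annotated genes among the tested rows. A transcript with a retained intron was listed for 71.0% of the 31 genes and for 57.2% of those genes. Splicing factors also had more transcripts listed, with a median of 7 per gene against 5, and the shares were not matched for this number. FPKM sums all transcripts of a gene, so a switch between a coding and a decay transcript could not be read from these values.

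Some of the 31 genes share sequence with other genes, which makes their FPKM less certain. Of the windows of 100 bases along the longest transcript, 56.3% for Hnrnpf, 44.9% for Srsf4, 30.6% for Srsf2, 27.9% for Hnrnpm, 27.5% for Hnrnpa3, 26.1% for Hnrnpk, 25.4% for Hnrnpa1 and 23.2% for Hnrnpab occurred in transcripts of other genes. For Hnrnpa1 these were 11 genes, of which 2 carry names of Hnrnpa1 pseudogenes and the others only clone or gene model names. For Srsf10 the share was 7.91%, and for Srsf6, Srsf11 and Hnrnpu it was 0%.

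Training was first compared with the home cage. Among the SR genes Srsf10 stood out, a protein that becomes a splicing repressor when its RS domain is dephosphorylated. Srsf10 was at 16.5, 17.6 and 18.3 FPKM in VEH-HC, given here and further on as lowest, median and highest of 6 mice. It was at 18.7, 20.5 and 21.2 FPKM in VEH-T10, at 18.5, 20.2 and 21.7 FPKM in Y397F-T10 and at 19.4, 19.9 and 23.5 FPKM in VEH-T3. All mice of these 3 trained conditions lay above all VEH-HC mice. In Y397D-T3 it was at 17.9, 19.5 and 21.0 FPKM, and the lowest of these mice overlapped VEH-HC. Srsf10 rose by a log2 fold change of 0.25 (SE 0.05, adjusted p = 0.00784) in VEH-T3, of 0.21 (SE 0.05, adjusted p = 0.0299) in VEH-T10 and of 0.20 (SE 0.05, adjusted p = 0.0373) in Y397F-T10. In Y397D-T3 the log2 difference was 0.15 (SE 0.05) with an adjusted p of 0.0536, which misses the threshold of 0.05. The p-values come from limma on log2(FPKM + 1) and are adjusted over the 13184 tested rows of a comparison by the Benjamini-Hochberg method. All 24 trained mice were above the VEH-HC median, and the mean of the 4 trained conditions was higher by a log2 fold change of 0.20 (SE 0.04, adjusted p = 0.00226).

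Srsf1, the founding SR protein, which favors the use of nearby splice sites, was at 23.9, 25.1 and 26.5 FPKM in VEH-HC and of 26.5, 28.3 and 29.9 FPKM in VEH-T3. These ranges met at their edges. The rise had a log2 fold change of 0.16 (SE 0.04, adjusted p = 0.0223). In VEH-T10 Srsf1 was at 25.1, 27.2 and 28.1 FPKM, in Y397F-T10 at 26.2, 27.4 and 28.1 FPKM and in Y397D-T3 at 24.8, 26.9 and 29.7 FPKM, each overlapping VEH-HC. The call in VEH-T3 was lost when a trend with transcript length and GC content was removed (0.12, adjusted p = 0.0969). The other conditions had log2 differences between 0.09 and 0.10 with adjusted p between 0.164 and 0.207. Over the 4 trained conditions Srsf1 rose (log2 fold change 0.11, SE 0.03, adjusted p = 0.0223), with 23 of 24 mice above the VEH-HC median.

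Srsf11, an RS protein with a part in the splicing of neuronal microexons, lay at 24.99, 26.9 and 29.5 FPKM in VEH-HC. Its medians in the trained conditions were close together, with 31.2 FPKM in VEH-T10 and 30.6 FPKM in each of the other 3. The trained mice ran from 25.002 to 33.6 FPKM and overlapped the home cage. Srsf11 passed the test over the 4 trained conditions (log2 fold change 0.17, SE 0.05, adjusted p = 0.0336), while the adjusted p of each condition taken alone lay between 0.0788 and 0.24.

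Srsf6 was at 21.0, 22.3 and 26.3 FPKM in VEH-HC and 23.9, 25.6 and 28.4 FPKM in Y397D-T3. All 6 Y397D-T3 mice were above the VEH-HC median, although 1 VEH-HC mouse at 26.3 FPKM lay inside their range. Srsf6 rose there by a log2 fold change of 0.17 (SE 0.05, adjusted p = 0.0398). The other trained conditions had log2 differences of 0.07 to 0.13 and did not pass.

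None of the other 7 SR genes passed the test in any comparison with VEH-HC. Srsf7 and Srsf9 were above the home cage in each trained condition, with log2 differences of 0.06 to 0.15 and of 0.03 to 0.17. Srsf12 was below it in each, with medians of 5.26 to 5.56 FPKM against 6.08 FPKM. Srsf2, Srsf3, Srsf4 and Srsf5, which include the most abundant SR messages, had log2 differences between -0.08 and 0.08.

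Among the hnRNPs, Hnrnpa1 had the largest difference, a protein that silences exons and opposes Srsf1 in the choice of splice sites. Its lowest, median and highest values were 73.9, 77.2 and 103 FPKM in VEH-HC, 72.2, 76.0 and 83.7 FPKM in VEH-T10, 70.2, 74.2 and 83.2 FPKM in Y397F-T10, 59.6, 69.4 and 74.4 FPKM in VEH-T3 and 54.9, 64.4 and 68.5 FPKM in Y397D-T3. Every Y397D-T3 mouse was below every VEH-HC mouse, and the VEH-T3 mice were below the VEH-HC median but overlapped its range. Hnrnpa1 fell in Y397D-T3 by 0.35 on the log2 scale (SE 0.07, adjusted p = 0.00449). In VEH-T3 the log2 difference was -0.23 (SE 0.07) with an adjusted p of 0.0544, and in the conditions with 10 min of training it was -0.06 and -0.10 with adjusted p of 0.734 and 0.504. Over the 4 trained conditions it was lower by a log2 fold change of -0.18 (SE 0.06, adjusted p = 0.0352). VEH-HC mouse 4 alone held the value of 103 FPKM, while the other 5 home cage mice lay between 73.9 and 77.9 FPKM. Without that mouse Hnrnpa1 remained lower in Y397D-T3 (log2 fold change -0.27, SE 0.06, adjusted p = 0.00979), but the 4 trained conditions together no longer passed (-0.11, adjusted p = 0.174), nor did they with libraries centred on their median (-0.16, adjusted p = 0.102) or the length and GC trend removed (-0.14, adjusted p = 0.155). The same mouse held the lowest VEH-HC value of Malat1, 17.4 FPKM.

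Hnrnpm, which binds GU-rich introns, had values of 40.4, 44.2 and 48.0 FPKM in VEH-HC. In Y397D-T3 it was at 47.9, 51.6 and 53.2 FPKM, and the ranges touched. The rise had a log2 fold change of 0.20 (SE 0.06, adjusted p = 0.0433). In VEH-T10, Y397F-T10 and VEH-T3 the medians were 50.6, 48.8 and 50.1 FPKM, and the log2 differences of 0.14 to 0.18 did not pass. The 4 trained conditions together did (log2 fold change 0.17, SE 0.05, adjusted p = 0.0294).

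Hnrnpu was at 93.4, 97.2 and 101 FPKM in VEH-HC and at 100.3, 104 and 117 FPKM in VEH-T3. The ranges met at their edges, and it rose there by a log2 fold change of 0.13 (SE 0.04, adjusted p = 0.0476). The call was lost and the log2 difference fell to 0.05 (adjusted p = 0.626) when the length and GC trend was removed. It was also lost with centred libraries (adjusted p = 0.0539), no filter on low rows (0.0569) and the replicate block (0.0543). Y397F-T10 mice lay at 102, 105 and 109 FPKM, all above the home cage, but the adjusted p was 0.134. VEH-T10 mice were at 95.02, 97.9 and 102 FPKM, inside or close to the home cage range.

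Hnrnpr, a partner of messages that travel into axons, was at 11.2, 11.6 and 12.7 FPKM in VEH-HC and had trained medians of 10.7 to 11.1 FPKM. It was lower over the 4 trained conditions by a log2 fold change of -0.09 (SE 0.03, adjusted p = 0.0474), with 21 of 24 mice below the VEH-HC median and overlapping ranges. The value was not stable, with -0.26 (adjusted p = 0.0147) after removal of the length and GC trend and -0.06 (adjusted p = 0.268) with centred libraries, and the call held in 9 of 30 fits that left out 1 library. No trained condition passed by itself, with adjusted p of 0.0915 to 0.298.

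The genes Hnrnpd and Hnrnpdl, related proteins that bind AU-rich messages and in the case of Hnrnpd hasten their decay, were named for their small unadjusted p-values. Hnrnpd was at 21.5, 21.9 and 22.5 FPKM in VEH-HC and at 17.6, 19.8 and 20.1 FPKM in VEH-T10. The ranges did not overlap, yet the log2 difference of -0.17 (SE 0.04) had an adjusted p of 0.0658. The same gene was at 20.5, 21.0 and 22.3 FPKM in Y397F-T10, 20.1, 21.7 and 25.2 FPKM in VEH-T3 and 19.0, 21.6 and 21.9 FPKM in Y397D-T3. Hnrnpdl was at 48.5, 51.8 and 57.6 FPKM in VEH-HC, 41.2, 46.8 and 49.5 FPKM in VEH-T10 and 42.8, 45.0 and 49.0 FPKM in Y397F-T10. Its log2 differences of -0.19 and -0.20 had adjusted p of 0.0812 and 0.0589. After 3 min of training the medians were 50.4 and 50.2 FPKM.

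The remaining 14 hnRNP genes passed no test against VEH-HC. Hnrnph1 and Hnrnph3, which bind runs of G, and Hnrnpul2 were above the home cage in each trained condition, with log2 differences of 0.02 to 0.15, 0.11 to 0.16 and 0.01 to 0.12. Hnrnpk was below it in each, with log2 differences of -0.07 to -0.11. Hnrnpa2b1 had medians of 120 FPKM in VEH-HC and 129 FPKM in VEH-T3. Its VEH-T3 mice ran from 121 to 134 FPKM, overlapped the top of the home cage range and had an adjusted p of 0.0501.

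**Figure D2:**
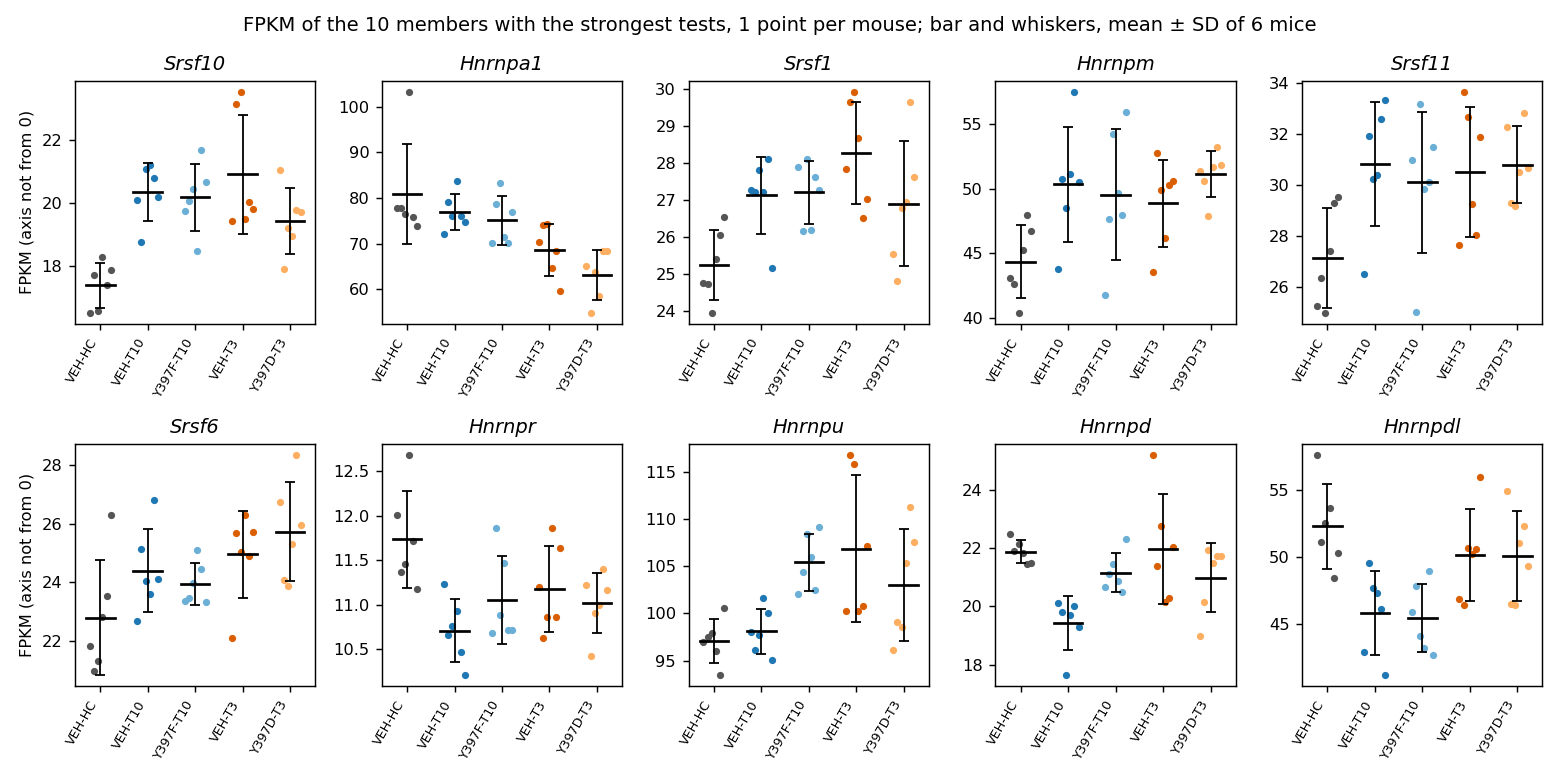
FPKM of the 10 genes given in full, 1 panel per gene and 1 point per mouse in the 5 conditions, with bars and whiskers for mean ± SD of 6 mice (vertical axes do not start at 0). Srsf10 lies at 16.5 to 18.3 FPKM in VEH-HC and at 18.5 to 23.5 FPKM in VEH-T10, Y397F-T10 and VEH-T3, and Hnrnpa1 falls to 54.9 to 68.5 FPKM in Y397D-T3.

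By count, few of the 31 genes passed in any comparison. In VEH-T10 1 gene rose and 0 fell, where 0.319% of all tested rows rose and 0.501% fell. In Y397F-T10 1 rose and 0 fell, beside 0.47% and 0.66% of all rows. In VEH-T3 3 rose and 0 fell, beside 2.23% and 2.94%, and in Y397D-T3 2 rose and 1 fell, beside 3.91% and 3.16%. For 31 genes the counts in Y397D-T3 are near the shares of all rows. Over the 4 trained conditions 4 rose and 2 fell, beside 3.86% and 5.79%. At an unadjusted p under 0.05, 11 genes were higher and 2 lower in VEH-T3, where 7.79% of all rows were higher and 13.8% lower. In Y397D-T3 10 were higher and 3 lower, beside 10.3% and 14.6%. VEH-T10 had 5 higher and 5 lower (4.57% and 10.3% of all rows), and Y397F-T10 8 higher and 3 lower (5.5% and 11.4%). The 4 trained conditions together had 12 higher and 5 lower (8.7% and 16.6%). All 6 mice lay beyond all VEH-HC mice for 1 gene above and 1 below in VEH-T10 (0.789% and 1.64% of all rows), for 2 above and 0 below in Y397F-T10 (0.554% and 1.24%), for 1 above and 0 below in VEH-T3 (0.675% and 1.31%) and for 0 above and 1 below in Y397D-T3 (2.5% and 3.02%). Taking the 24 trained mice together, this held for 0 genes above and 0 below (0.0531% and 0.0683%). The 1 gene wholly below VEH-HC in Y397D-T3, Hnrnpa1, is likewise a count near the share of all rows. Centring each library on its median changed the split of the calls at an adjusted p under 0.05 to 5 higher and 1 lower in Y397D-T3 and to 8 higher and 0 lower over the 4 trained conditions, and left 1, 1 and 3 genes higher in VEH-T10, Y397F-T10 and VEH-T3. The whole table moved the same way, from 509 rows higher and 764 lower to 603 and 307 over the 4 trained conditions, and from 515 and 417 to 692 and 248 in Y397D-T3.

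Many of these calls lie near the threshold. Leaving out 1 library at a time kept Srsf10 in VEH-T3 (adjusted p 0.00304 to 0.0304) and over the 4 trained conditions (0.00118 to 0.0082), and Hnrnpa1 in Y397D-T3 (0.00422 to 0.0153). The other 11 of the 14 calls were each lost without at least 1 library. The fold changes kept their sign, but they were picked for small p-values in these same libraries. For Srsf10 they stayed between 0.20 and 0.24 in VEH-T10 and between 0.18 and 0.23 in Y397F-T10. Of the VEH-T10 comparison 0 calls were left without VEH-HC mouse 1, 2, 3 or 5 or without VEH-T10 mouse 3, 4, 5 or 6. In Y397F-T10 0 were left without VEH-HC mouse 1, 2, 3, 4 or 5 or Y397F-T10 mouse 3, 5 or 6, and 2 were found without Y397F-T10 mouse 1 or 2. In VEH-T3 1 was left without VEH-HC mouse 3 or 4 or VEH-T3 mouse 2 or 3, whereas 5 were found without VEH-HC mouse 6 or VEH-T3 mouse 5 and 6 without VEH-T3 mouse 1. In Y397D-T3 the 1 call of Hnrnpa1 was left without VEH-HC mouse 1, 2, 3 or 4 or Y397D-T3 mouse 1, 4, 5 or 6. Over the 4 trained conditions 1 was left without VEH-HC mouse 1 or 2, 2 without mouse 3 and 3 without mouse 4. With only the 12 libraries of both conditions in the fit, Srsf10, Srsf1 and Hnrnpu in VEH-T3 had adjusted p of 0.083, 0.0899 and 0.164, Srsf10 in Y397F-T10 had 0.072 and Srsf6 in Y397D-T3 had 0.0693.

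**Figure D3:**
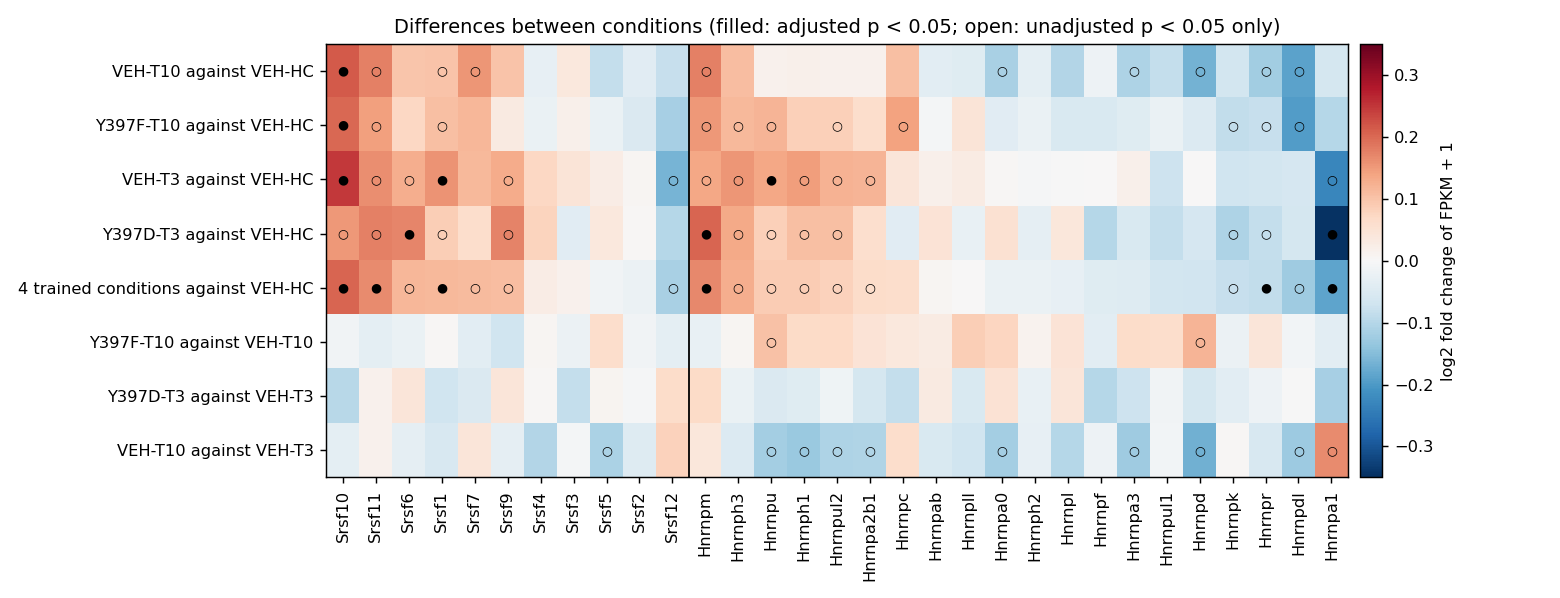
Log2 fold change of FPKM + 1 for the 31 genes (columns, SR genes left of the line) in 8 comparisons (rows), red for higher and blue for lower, with filled marks for an adjusted p under 0.05 and open marks for an unadjusted p under 0.05 only. Srsf10 carries 4 filled marks, and no mark is filled in the 3 rows that compare trained conditions with each other.

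The families were then read by direction, without a test between them. Of the SR genes 10 of 11 were higher in VEH-T3, 9 in Y397D-T3, 7 in VEH-T10 and 7 in Y397F-T10, with median log2 differences of 0.11, 0.08, 0.10 and 0.03. Of the hnRNP genes 13 of 20 were higher in VEH-T3, 9 in Y397D-T3, 7 in VEH-T10 and 8 in Y397F-T10, with medians of 0.01, -0.03, -0.04 and -0.02. All tested rows had medians of -0.04, -0.03, -0.03 and -0.04 in these comparisons, and 36.3% to 40.4% of them were higher. Per mouse, the mean log2(FPKM + 1) of the SR genes was 4.74 to 4.87 in VEH-HC, 4.83 to 4.93 in VEH-T3 and 4.76 to 4.94 over all trained mice, so that the groups overlapped. The mean of the hnRNP genes was 5.65 to 5.76 in VEH-HC and 5.60 to 5.75 over the trained mice. VEH-HC mouse 4 held the highest hnRNP mean of the home cage. Together the 31 genes made up 0.386% to 0.448% of the summed FPKM of a library.

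**Figure D4:**
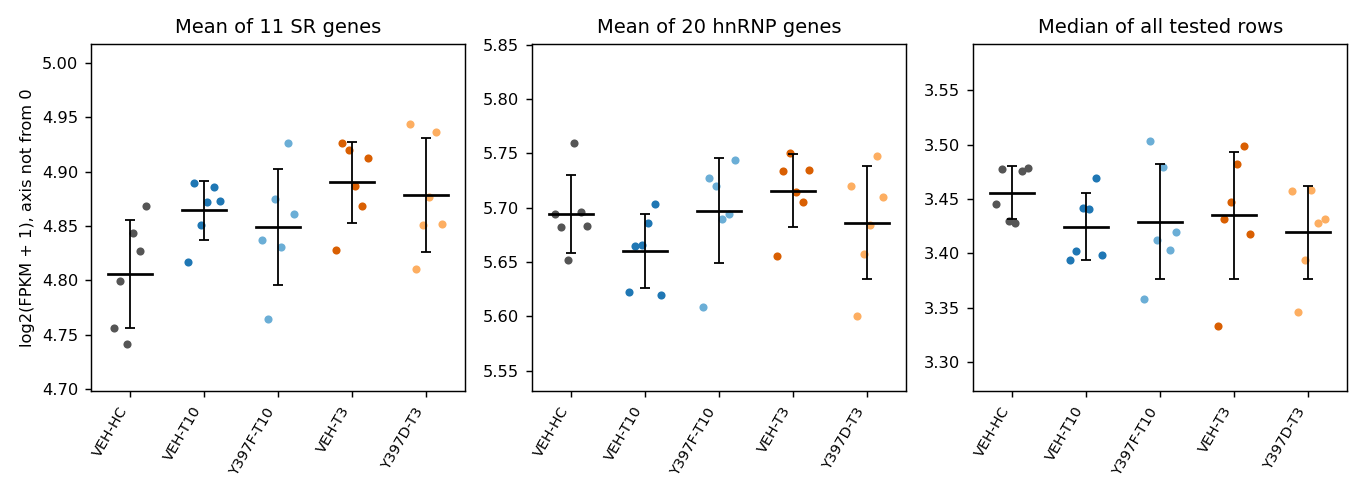
Mean log2(FPKM + 1) of the 11 SR genes, of the 20 hnRNP genes, and the median of all tested rows, 1 point per mouse with mean ± SD of 6 mice (axes span the same width and do not start at 0). The SR mean is 4.81 in VEH-HC and 4.85 to 4.89 in the trained conditions, and the mice of all groups overlap.

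The plasmid conditions were then set against the vehicle mice with the same training, and the lengths of training against each other. None of the 31 genes passed in Y397F-T10 against VEH-T10, where 0% of all tested rows did. At an unadjusted p under 0.05, Hnrnpu and Hnrnpd were higher with Y397F, 2 genes in all and 0 lower, beside 1.94% and 1.84% of all rows. For both, the 6 Y397F-T10 mice lay above the 6 VEH-T10 mice, with log2 differences of 0.10 and 0.12 and adjusted p rounding to 1 (0.174% of all rows had such ranges above and 0.0834% below). None passed in Y397D-T3 against VEH-T3, where 0.00758% of rows did, and at an unadjusted p under 0.05 there were 0 genes, beside 5.15% of all rows higher and 2.72% lower (0.137% and 0.091% without overlap). Srsf10 was lower there by 0.10 and Hnrnpa1 by 0.12 on the log2 scale, with adjusted p of 0.633 and 0.703. Of the tissue markers, 0 of 6 for oligodendrocytes and 0 of 6 for choroid plexus were higher in Y397D-T3 than in VEH-T3. Their median log2 differences were -0.19 and -1.69, and 5 of 7 pyramidal markers were higher. The difference between both plasmid effects also passed for 0 genes, beside 0.0303% of all rows, and at an unadjusted p under 0.05 4 were below 0 and 0 above, beside 3.43% and 5.65%.

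VEH-T10 against VEH-T3 likewise gave 0 calls among the 31 genes, beside 0.0455% of all rows. At an unadjusted p under 0.05, 9 genes were lower after 10 min than after 3 min and 1 was higher, where 4.51% and 3.65% of all rows were. Hnrnpd was lower in all VEH-T10 mice than in any VEH-T3 mouse (log2 difference -0.17, SE 0.04, adjusted p = 0.258), 1 gene below and 0 above beside 0.311% and 0.0758% of all rows. Hnrnpu was lower by 0.12 (adjusted p = 0.449), and Hnrnpa1 was the gene that was higher, by 0.17 (adjusted p = 0.56). Both comparisons with VEH-HC use the same home cage mice, and their calls were not set against each other. Tissue markers also differed between VEH-T10 and VEH-T3. After 10 min, 5 of 5 microglia and 5 of 5 astrocyte markers were higher (median log2 differences 0.25 and 0.19). Higher were 0 of 6 oligodendrocyte, 0 of 6 choroid plexus and 1 of 4 dentate granule markers (-0.23, -1.12 and -0.31). Of pyramidal markers 4 of 7 were higher. None of these markers was called, and their part was not tested.

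CREST is known to recruit the coactivator CBP, a partner of CREB. The start regions of the called genes were therefore read for TGACGTCA, TGACG and TGANTCA, letters that activity-dependent factors bind. TCTCGCGA and the GC box GGGCGG were read as well, but not as sites of such factors. Whether Y397 acts through CBP was not measured in these data. RefSeq windows from 250 bases before to 50 after a start site (GRCm38.p6) were found for 29 of the 31 genes, 41 windows in all with 1 to 5 per gene. Hnrnpll and Hnrnpul2 had no entry. Both strands were searched, and TGACG also lies inside TGACGTCA. The CRE palindrome TGACGTCA was in 0 of the 41 windows and in 1.79% of all 32851 windows. Its core TGACG was in 23 of 41 windows (56.1%), which belong to 18 genes, and in 20.8% of all windows. The AP-1 letters TGANTCA were in 1 of 41 windows, that of Hnrnpa1, and in 7.81% of all windows. TCTCGCGA was in 4 of 41 windows, of Srsf10, Srsf4 and Hnrnph3, and in 0.995% of all windows, and the GC box GGGCGG in 34 of 41 (82.9%) and 35.7% of all windows. The 32851 windows were not limited to the tested rows, and they were not matched to those of the members for base composition or level. For 7 of the 8 called genes 1 match of each motif named in the line is shown, 5′ to 3′ on the strand of the gene, with the letters of that match alone in capitals. A further TGACG of Hnrnpr, 52 bases before the start, and of Srsf11, 6 bases into the transcript, are not marked, nor are the GC boxes and a TCTCGCGA on the other strand of Srsf10 that overlaps the match shown. The core read on the other strand appears as CGTCA.
Srsf10, TGACG 98 bases before the start, chr4:135855961-135855990, + strand: ccgcggtgcgcgCGTCAggccggcggcgcg
Srsf10, TCTCGCGA 16 bases into the transcript, chr4:135856075-135856104, + strand: cgggagccaagTCTCGCGAgaagaggcagt
Srsf1, TGACG 94 bases before the start, chr11:88047267-88047296, + strand: gcaacagctcagCGTCAtctatctccgccc
Srsf6, TGACG 49 bases before the start, chr2:162931447-162931476, + strand: gctgcgcgacgaCGTCAcgcgctgcgccgc
Srsf11, TGACG 82 bases before the start, chr3:158036671-158036700, - strand: cgaccacggctgTGACGtttcaaggtgcca
Hnrnpm, TGACG 70 bases before the start, chr17:33685511-33685540, - strand: ggaggcgtggccTGACGtccagggggcgtg
Hnrnpr, TGACG 64 bases before the start, chr4:136310866-136310895, + strand: ctcttattggccCGTCAagctgcccgtcat
Hnrnpa1, TGANTCA 150 bases before the start, chr15:103240236-103240265, + strand: tggggcatcagTGACTCAaaggggcggagt
Hnrnpr, whose level was lower, holds the core as 5 genes with higher levels do, and the window of Hnrnpu held neither the core nor the AP-1 letters. The letters are a description of these windows and not evidence of a bound factor.

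The machinery around the SR and hnRNP proteins was read from lists of genes. Their counts stand beside 2.23% of all tested rows higher and 2.94% lower in VEH-T3, 3.91% and 3.16% in Y397D-T3, and 3.86% and 5.79% over the 4 trained conditions. Of 10 tested kinases and import factors of SR proteins, 2 rose and 0 fell in VEH-T3, in Y397D-T3 and over the 4 trained conditions, and 0 passed in VEH-T10 or Y397F-T10. Srpk1, which phosphorylates RS domains in the cytoplasm, went from 11.8 ± 0.998 FPKM in VEH-HC to 13.9 ± 0.439 FPKM in VEH-T3 (log2 fold change 0.23, adjusted p = 0.0133) and to 14.0 ± 0.733 FPKM in Y397D-T3 (0.23, adjusted p = 0.0058). Prpf4b, a further kinase of splicing factors, rose in VEH-T3 from 13.2 ± 0.599 to 15.2 ± 1.31 FPKM (0.19, adjusted p = 0.0461), and Clk1, which acts on SR proteins in the nucleus, rose in Y397D-T3 from 20.7 ± 2.095 to 26.5 ± 3.86 FPKM (0.34, adjusted p = 0.0396).

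Of 24 SR-related proteins, which carry RS repeats but lie outside the numbered SR genes, 4 rose in VEH-T3, 8 in Y397D-T3 and 8 over the 4 trained conditions, and 0 fell. In VEH-T10 and Y397F-T10 0 of the 24 passed. Tra2a, an activator of exons, rose over the 4 trained conditions from 20.7 ± 2.43 to 24.2 ± 1.70 FPKM (log2 fold change 0.22, adjusted p = 0.00886), and Srek1 from 8.43 ± 0.229 to 10.0 ± 0.962 FPKM (0.22, adjusted p = 0.00973). Son and Srrm2, large proteins of nuclear speckles, rose by log2 fold changes of 0.20 and 0.30 (adjusted p = 0.0121 for each). The median log2 difference of the list was 0.09 over the 4 trained conditions, beside -0.04 for all tested rows.

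Of 28 tested hnRNP-related proteins, 3 rose and 3 fell over the 4 trained conditions. Sfpq, a paraspeckle protein, rose from 44.1 ± 2.49 to 51.3 ± 2.58 FPKM (log2 fold change 0.21, adjusted p = 0.000316) and passed in each of the 4 trained conditions. Cirbp, which is induced by cold, fell from 53.2 ± 4.84 to 40.5 ± 4.63 FPKM (-0.39, adjusted p = 0.000465) and also passed in each. Its relative Rbm3, likewise induced by cold, fell from 86.6 ± 10.8 to 66.6 ± 8.67 FPKM (-0.38, adjusted p = 0.00551). The log2 differences of these genes were larger than those of most SR and hnRNP genes, and these differences between genes were not tested. These genes were named for the smallest adjusted p of their list, so their size cannot be set against unselected genes. The median log2 difference of the whole list was -0.02 over the 4 trained conditions.

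Of 27 neuronal splicing regulators, 3 rose and 1 fell over the 4 trained conditions, Rbfox1, Rbfox3 and Rbm5 upward and Khdrbs1 downward. Rbfox1 went from 83.6 ± 6.23 to 97.3 ± 8.50 FPKM (log2 fold change 0.21, adjusted p = 0.0133) and Khdrbs1 from 38.1 ± 1.69 to 34.4 ± 1.82 FPKM (-0.14, adjusted p = 0.0115). Of 39 core spliceosome genes 2 rose and 1 fell, Snrnp70 and Sf3b1 upward and Sf3b2 downward, a count near the shares of all rows. Of 14 genes of nonsense-mediated decay 2 rose, the kinase Smg1 from 6.99 ± 1.14 to 9.57 ± 1.13 FPKM (0.41, adjusted p = 0.0017) and Upf2 (0.18, adjusted p = 0.00855), and 0 fell.

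With the condition means removed, the 31 genes varied together between mice to a small degree. The median Pearson correlation of log2(FPKM + 1) over the 30 mice was 0.146 for the 465 pairs among them and 0.0366 between them and the other tested rows. Within the SR genes it was 0.181, within the hnRNP genes 0.158 and between the families 0.119. Pairs ran from -0.659 for Hnrnpf and Srsf12 to 0.835 for Hnrnpa2b1 and Hnrnpm. All pairs share their libraries, so differences in dissection and RNA that raise or lower many genes at once enter these values, which are given without a test.

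**Figure D5:**
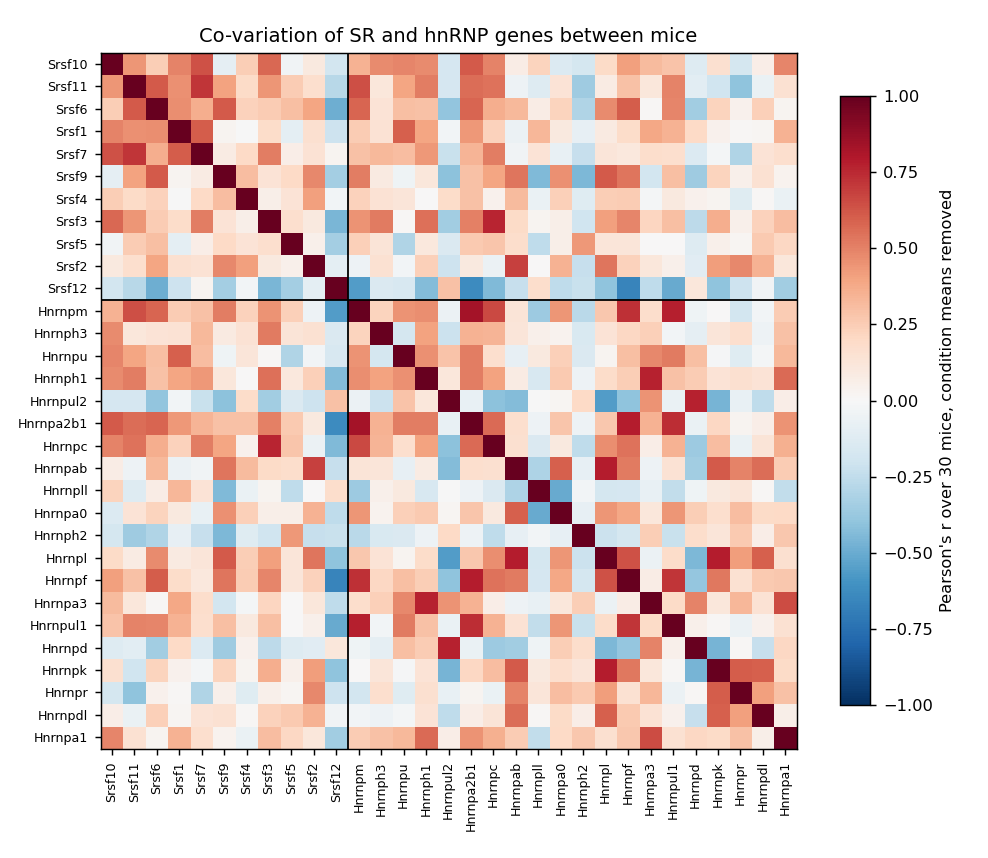
Pearson correlation over 30 mice, condition means removed, for each pair of the 31 genes (red positive, blue negative, SR genes before the line). The median over the 465 pairs is 0.146, and Srsf12 is negative with Hnrnpf (-0.659), Hnrnpa2b1 (-0.627) and Hnrnpm (-0.561). With libraries centred on their median (not shown) the values of these pairs are -0.797, -0.129 and -0.324.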

How the data were processed

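RNA of 30 mice was sequenced as 1 library each. The deposited values are FPKM, which the authors computed with Cufflinks 2.2.1 after alignment with TopHat2 2.1.1 to mm10, per the labels. All 30 columns were used as deposited. Conditions came from the labels. Libraries ran on NovaSeq or HiSeq instruments that are not assigned to samples, so no batch was modelled. Total reads are not given with FPKM. Steps in 2642 rows of low FPKM placed the relative depth between 0.810 and 1.24 of the median library, and precision rests on the spread among 6 mice.

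log2(FPKM + 1) of the 13184 rows with a mean of at least 1 FPKM was fitted with limma 3.58.1 in R 4.3.3, 1 coefficient per condition over all 30 libraries with a variance trend, and Benjamini-Hochberg adjustment per comparison at 0.05. The added 1 draws fold changes of low genes toward 0. The fit was tested on simulated data with noise drawn independently for each row. Such data cannot show false calls from library differences that many rows share. Genes given in full passed in any of 9 contrasts or had the smallest unadjusted p until 10 were reached. The members and lists were chosen with earlier results of these data known. Coordinates, lengths and transcript classes come from GENCODE M21 (GRCm38) by symbol, start regions from RefSeq. Other steps used Python 3.11.15, numpy 2.4.6, pandas 2.3.3 and matplotlib 3.10.9. Alternatives were a pseudocount of 0.1, no filter, centring on the library median, only the libraries compared, a replicate block, unadjusted p, rows of a symbol summed, removal of a trend with length and GC content, and leaving out each library. The last 2 fits named with GC content in the closing section, without VEH-HC mouse 4 and with the block, were added after the data were seen. A result on 1 gene of the lists is not reported here.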

Additional observations from a re-analysis of the deposited data

Results flagged for a closer look

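Among the 10 genes given in full, 4 of 50 groups of 6 mice held a value far from the others, with a gap to the nearest mouse that, divided by the range, passed Dixon's critical value for 6 samples. Chance flags about 1 in 20 groups. Hnrnpa1 was at 103.24 FPKM in VEH-HC mouse 4, where the other 5 mice lay between 73.9 and 77.9 FPKM. Hnrnpd was at 17.6 FPKM in VEH-T10 mouse 3, below the others at 19.3 to 20.1 FPKM. Srsf1 was at 25.1 FPKM in VEH-T10 mouse 6, with the others at 27.2 to 28.1 FPKM. Srsf6 was at 22.1 FPKM in VEH-T3 mouse 1, with the others at 24.9 to 26.3 FPKM. Over all 31 genes there were 10 flags in 155 groups. VEH-HC mouse 4 held the flagged value for Hnrnpa1, Hnrnpa3 (54.4 FPKM), Hnrnph1 (73.1 FPKM) and Hnrnpl (93.0 FPKM). This mouse is part of the reference in every comparison with the home cage. None of the 31 genes passed the test of a difference between the plasmid effects after 3 min and after 10 min.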

How the results depend on the processing

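The 46 fold changes with an unadjusted p under 0.05 among the 10 genes given in full changed sign in 0 of 1143 refits. They were picked by that p in the same libraries, so a kept sign was likely in advance and says little about stability. The number of the 31 genes called moved with the setting. With only the libraries compared in the fit it was 2 in VEH-T10, 0 in VEH-T3, 0 in Y397F-T10 and 5 in Y397D-T3 against VEH-HC, where 91 rows of the whole table were higher and 230 lower, 0 and 0, 6 and 37, and 685 and 1160. After removal of a trend with transcript length and GC it was 2 in VEH-T10 (111 rows higher and 36 lower in all) and 12 in Y397D-T3 (901 and 225), and with libraries centred on their median 6 in Y397D-T3 (692 and 248). At an unadjusted p it was 10 in VEH-T10, 13 in VEH-T3, 11 in Y397F-T10, 13 in Y397D-T3, 17 over the 4 trained conditions, 2 in Y397F-T10 against VEH-T10, 10 in VEH-T10 against VEH-T3 and 4 for the difference of plasmid effects. Removing the length and GC trend without VEH-HC mouse 4, chosen after seeing the data, gave 12 in Y397D-T3 (847 and 182). The causes were not tested. Leaving out 1 library gave 0 to 1 calls in VEH-T10, 1 to 6 in VEH-T3, 0 to 2 in Y397F-T10, 1 to 3 in Y397D-T3 and 1 to 7 over the 4 trained conditions, and 0 in the comparisons among trained conditions. For these fits too, counts over all tested rows are not given beside the counts of members. The median correlation among the genes was 0.225 after centring, against 0.146.

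Replicate numbers did not pair the mice. The 60 pairs with the same number had correlations of -0.496 to 0.840 (median 0.0416), other pairs had a median of 0.00649, and 8 of 30 libraries correlated best with one of their own number. With the replicate block 1 gene was called in VEH-T10, 2 in VEH-T3, 1 in Y397F-T10, 4 in Y397D-T3, 7 over the 4 trained conditions and 0 elsewhere. Counts over all tested rows are not given for this fit, so a move of the whole table cannot be seen from these numbers. The block with the length and GC trend removed, also chosen after seeing the data, gave 2 in VEH-T10 (116 and 55) and 10 in Y397D-T3 (942 and 273). Read depth is not given, so its limit on low genes could not be stated.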
